A study of Danio rerio with 4 samples.

Results

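The data described here are the RNA profiles of cell pools of the zebrafish embryo, sorted by a transgene as TRPC2 class olfactory sensory neurons (OSNs). They are 2 of the 4 libraries of the series, chosen by the label that gives their neuron subtype as TRPC2, and not by any measured value. Each TRPC2 library was made from a pool of cells that carried the Tg(trpc2:gap-Venus) transgene, and each of the other 2, the OMP libraries, from cells that carried Tg(omp:lyn-RFP). All embryos were of a Tubingen/TLF background and 48 hpf old, that is, 48 hours after fertilization, and their olfactory epithelia were dissected, dissociated with trypsin and sorted by fluorescence. A transgene is only as specific as the promoter that drives it, so a sorted cell is one in which the trpc2 promoter had been active enough to give Venus fluorescence. Markers of xanthophores, which are pigment cells, were also high in these pools, as given below. The TRPC2 pools were much smaller than the OMP pools, the second being the smaller by the study's own numbering. Their RNA was amplified from the poly(A) tail through 2 rounds of T7 transcription, against 1 round for OMP. Neuron class, pool size and rounds of amplification therefore cannot be told apart in any difference between TRPC2 and OMP.

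Microvillous OSNs are one of the sensory neuron types of the fish nose. They carry short microvilli in place of cilia, and use receptors of the V2R family with a G protein of the Go type, phospholipase C and the cation channel TRPC2. Ciliated OSNs use olfactory receptors, the G protein subunit Golf, adenylyl cyclase and a cyclic nucleotide-gated channel. Both arise from the olfactory placode and send axons to the olfactory bulb.

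Levels are given in RPM as deposited, that is, read counts scaled to a fixed library size. They are not divided by transcript length, and amplification from the poly(A) tail favours the 3′ ends of transcripts, so the order of genes below is an order of reads and not of transcript numbers. The TRPC2 libraries held 49483362 and 60189797 reads on genes, the OMP libraries 68098416 and 84599818, and 3 reads corresponded to 0.0339 and 0.0356 RPM in TRPC2. At 1 RPM or more there were 11396 and 11426 genes in the TRPC2 libraries and 16171 and 16142 in OMP. Red blood cell genes stood far apart between the OMP libraries, at a summed 10134 and 105936 RPM, against 0.35 and 5.97 RPM in TRPC2.

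The 4 genes taken as markers of microvillous OSNs were all higher in both TRPC2 libraries than in both OMP libraries. The channel gene trpc2b, whose promoter defined the sort, measured 13.5 and 24.2 RPM, where the OMP libraries had 2.80 and 3.82 RPM. These are pools of cells, so fewer cells of a type and less RNA per cell cannot be told apart in any level. The calcium-binding protein gene s100z was at 1482 and 993 RPM, against 224 and 237 RPM in OMP. Calretinin, the calcium buffer encoded by calb2a, was at 3476 and 1635 RPM, against 432 and 398 RPM. The V1R type receptor gene ora1 was at 265 and 203 RPM, with 2.03 and 2.65 RPM in OMP. The groups did not overlap for any of the 4, and trpc2b was the lowest of them in reads. Other microvillous genes, given below, did not all follow. A wider list, which includes these 4, had 15 genes at 1 RPM or more in both TRPC2 libraries. Of the 15, 7 were above and 4 below both OMP libraries, beside 15.6% and 42.0% over all genes at that level. Of 39 V2R genes, 0 were above and 15 below, beside 5.61% and 53.3% over all genes. Log2 fold changes of the 4 markers, TRPC2 over OMP, were 3.30 ± 0.66 (SE) for trpc2b, 3.20 ± 0.41 for s100z, 3.39 ± 0.54 for calb2a and 7.42 ± 0.45 for ora1. Each had an adjusted p of 0.0721 in edgeR's quasi-likelihood test.

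That adjusted p was the smallest reached and was shared by 3337 genes, so 0 of 21026 genes passed 0.05, a background of 0%. At an unadjusted p under 0.05, 1510 genes were higher in TRPC2 (7.18%) and 4907 were lower (23.3%). On the same genes DESeq2 called 3909 and limma on log2(RPM + 0.5) called 5110. An exact permutation test on a single gene cannot go below 0.333 with 2 libraries against 2. For this reason differences from OMP are given as levels, with a statement of whether the groups overlapped. Of all 29029 genes, 5.61% had both TRPC2 libraries above both OMP libraries, and 53.3% had both below. Among the 9319 genes at 1 RPM or more in both TRPC2 libraries these shares were 15.6% and 42.0%. With reads scaled to the gene total, 1601 of the 9319 were above and 3171 below. Shares of members below are read against these values.

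Both TRPC2 libraries held many of the same genes, but agreed less than the OMP libraries did. Outside the olfactory receptor families there were 28753 genes, of which 9313 (32.4%) were at 1 RPM or more in both TRPC2 libraries. These made up 81.8% of the genes at that level in the first library and 81.7% in the second. Another 486 genes were at 1 RPM or more in the first library with 0 reads in the second, and 543 the other way round. The OMP libraries held 4 and 6 such genes. Between these extremes, 1585 and 1548 genes were at 1 RPM or more in one TRPC2 library and read below 1 RPM in the other. Of the 9313 genes found in both, 55.6% agreed within 2-fold and 194 (2.08%) differed by more than 10-fold. In OMP 91.6% of 15225 genes agreed within 2-fold. The SD of the log2 ratio between libraries was 1.37 in TRPC2 and 0.61 in OMP.

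**Figure D1:**
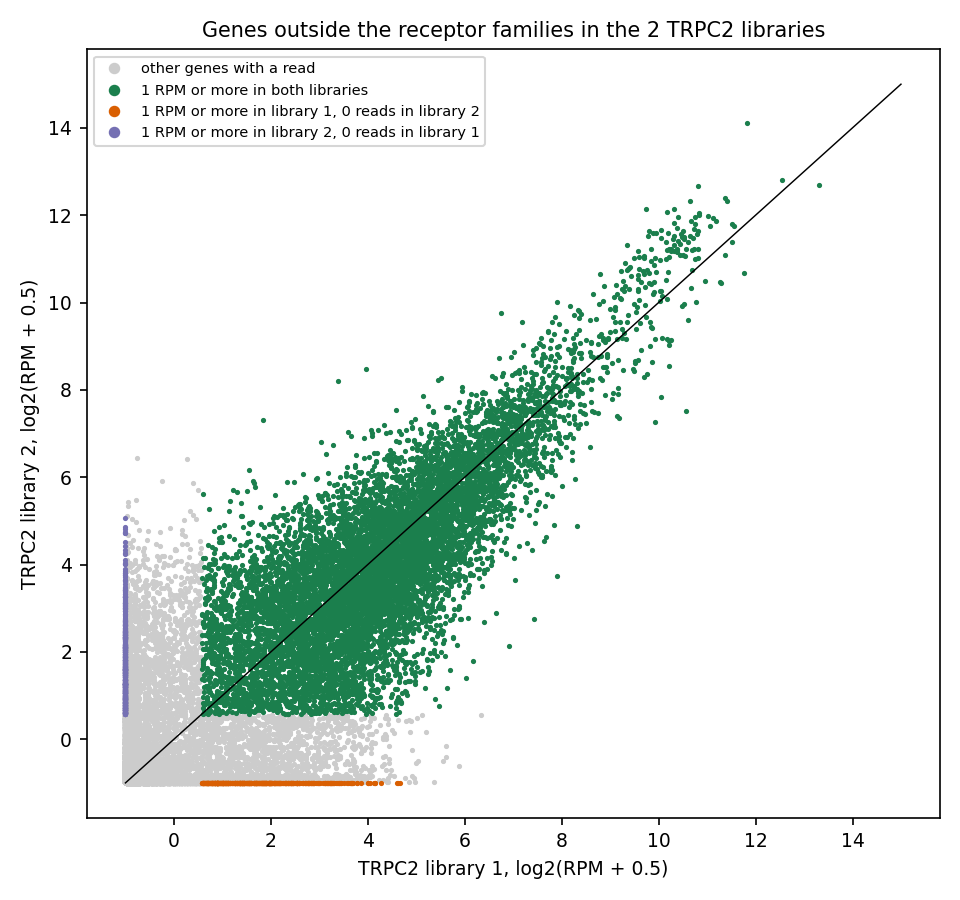
Each point is a gene outside the receptor families, at its level in TRPC2 library 1 and library 2, both as log2(RPM + 0.5), with the line of equal level in black. Green points are the 9313 genes at 1 RPM or more in both libraries; the 486 orange and 543 purple points along the edges were read in 1 library only, and none of them exceeded 33.1 RPM.

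The highest genes outside the receptor families were mostly those of protein synthesis and the cytosol. Ranked by the lower of the 2 TRPC2 levels, 55 of the first 100 encoded ribosomal proteins or elongation factors, and 98 of the 100 were at 100 RPM or more in both OMP libraries. The first gene was pvalb5, which encodes a parvalbumin, a cytosolic calcium buffer, at 10130 and 6647 RPM. Its OMP levels were 7997 and 8388 RPM, between the TRPC2 values. The elongation factor gene eef1a1l1 followed at 5977 and 7117 RPM.

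The third was wu:fc46h12, a gene named only by its clone, at 3609 and 17758 RPM, while OMP had 3.01 and 16.1 RPM. In the second library it was the highest of all genes named here. The histone H3.3 gene h3f3b.1 was at 3021 and 3432 RPM, above its 1777 and 1910 RPM in OMP. The glutathione transferase gene gstp1, an enzyme of detoxification, was at 2706 and 5136 RPM, against 1261 and 1889 RPM. The remaining 5 of the first 10 were hsp90ab1, cirbpb, eef2b, slc25a5 and tpt1, between 2230 and 5364 RPM in TRPC2. With translation genes left out, hsp70l and hspa8, 2 chaperones, entered the first 10. Of these 7 genes cirbpb had both TRPC2 levels above both OMP levels. When reads were scaled to the gene total it did not, and slc25a5 and tpt1 did.

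Transcription factor genes, taken by symbol family, numbered 826, of which 332 were found in both TRPC2 libraries, 27 only in the first and 32 only in the second. Of the 332, 56 (16.9%) were above both OMP libraries, near the 15.6% over all genes, and 128 were below both. The highest was ebf3a, a member of the Collier/Olf/EBF family that acts in the differentiation of olfactory neurons, at 723 and 1006 RPM. In OMP it was at 397 and 287 RPM, so the groups did not overlap.

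Regulators of neuronal differentiation were among the other 11 highest. The proneural gene neurod1 was at 265 and 157 RPM, against 88.1 and 76.8 RPM in OMP. nhlh2, a neuronal bHLH gene, was at 310 and 149 RPM, against 98.3 and 79.9 RPM. The homeobox gene pax6b, a regulator of eye and placode development, was at 289 and 127 RPM, against 65.8 and 45.0 RPM. In all 3 the groups did not overlap, and the first TRPC2 library was the higher one.

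The SoxC gene sox11a, at 334 and 183 RPM in TRPC2, overlapped with OMP, where it was at 191 and 123.2 RPM. xbp1, a factor of the unfolded protein response, was at 273 and 310 RPM, above 240 and 210 RPM in OMP. The stress response genes atf4b and atf4a were at 251 and 252 RPM and at 190 and 397 RPM. For atf4b both libraries were below the 352 and 353 RPM of OMP. The homeobox gene pbx4, the forkhead gene foxp4 and the zinc finger gene myt1a lay between 124 and 325 RPM. Of the 3, myt1a was above both OMP libraries, though when reads were scaled to the gene total pbx4 was and myt1a was not.

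The immediate early gene fosab separated the TRPC2 libraries most among these 12, at 966 and 153 RPM. Both levels were below both OMP libraries. Of 39 listed regulators of the placode and of olfactory neurons at 1 RPM or more in both TRPC2 libraries, 9 (23.1%) were above both OMP libraries. The share over all genes was 15.6%, and 17 of the 39 were below both. With reads scaled to the gene total, 8 were above and 13 below. Among those above, and outside the first 12, were nr2f1a and lhx9, chosen after their values were seen. The orphan nuclear receptor gene nr2f1a was at 102 and 151.4 RPM, against 36.1 and 30.1 RPM. The LIM homeobox gene lhx9 was at 81.1 and 97.7 RPM, against 31.7 and 22.8 RPM.

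**Figure D2:**
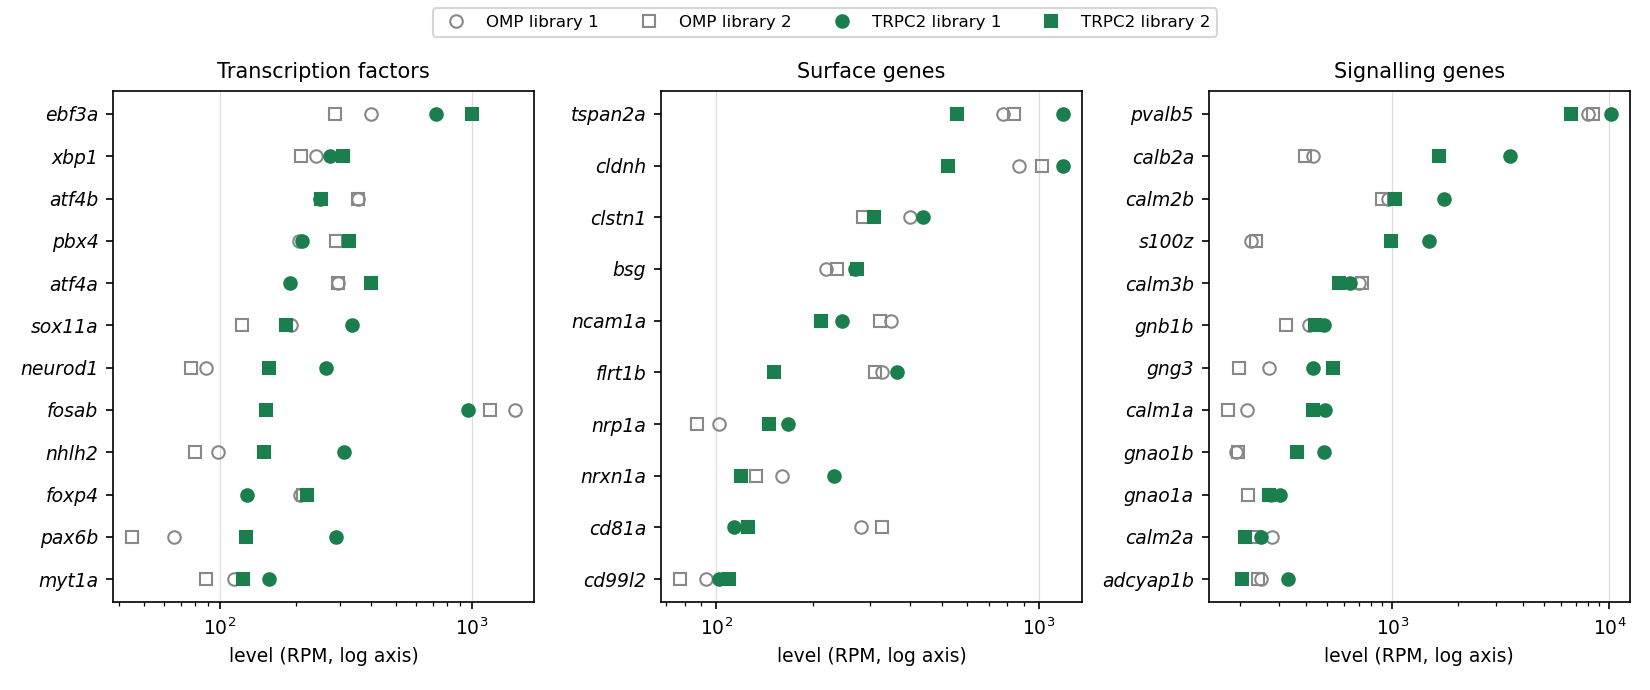
Levels in RPM on a log axis of the 12 transcription factor, 10 surface and 12 signalling genes with the highest lower TRPC2 level. Filled symbols are TRPC2 and open symbols OMP libraries; ebf3a, calb2a and s100z show both filled symbols to the right of both open ones, while fosab has its filled symbols at 966 and 153 RPM.

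Surface genes, that is, adhesion and guidance molecules and growth factor receptors, numbered 657. Of these 230 were found in both TRPC2 libraries, 9 only in the first and 21 only in the second. In 30 of the 230 (13.0%) both libraries were above OMP and in 106 both were below. The shares over all genes found in both were 15.6% above and 42.0% below. The tetraspanin gene tspan2a was at 1187 and 559 RPM, and the claudin gene cldnh at 1189 and 524 RPM. Both spanned their OMP levels, which were 775 and 836 RPM and 871 and 1026 RPM.

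Among genes with a role in axon growth, the semaphorin co-receptor gene nrp1a was at 167 and 146 RPM, above 102 and 87.0 RPM in OMP. The neural adhesion gene ncam1a was lower than in OMP, at 246 and 212 RPM against 348 and 323 RPM, although the groups overlapped when reads were scaled to the gene total. The tetraspanin gene cd81a was also lower, at 114 and 125 RPM against 281 and 327 RPM. bsg, which encodes the glycoprotein basigin, was at 270 and 273 RPM, against 219 and 237 RPM. cd99l2 was at 102 and 110 RPM, against 92.8 and 77.2 RPM. The adhesion genes clstn1, flrt1b and nrxn1a overlapped with OMP.

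From a list of axon guidance receptors, 20 of 41 genes were found in both TRPC2 libraries, 7 of them above and 6 below both OMP libraries. Among all genes found in both, 15.6% were above and 42.0% below. The median log2 fold change of the list was −0.34, beside −0.49 over all genes tested. After nrp1a its highest members were robo3, a receptor of the Robo family, and nrp2b, a neuropilin. robo3 was at 62.1 and 115 RPM, against 34.01 and 22.3 RPM. nrp2b was at 80.0 and 87.0 RPM, against 50.2 and 35.5 RPM. Neither overlapped with OMP. The chemokine receptor gene cxcr4b, named after its values were seen, was at 40.6 RPM in the first TRPC2 library and at 0.01 RPM in the second, with 51.2 and 48.4 RPM in OMP.

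Signalling genes numbered 1143, of which 287 were found in both TRPC2 libraries and 28 in each of them alone. Of the 287, 61 (21.3%) were above both OMP libraries, beside 15.6% over all genes, and 114 were below both. Calcium-binding proteins led the set, with pvalb5, calb2a and s100z as given above and 4 calmodulin genes. calm1a was at 488 and 431 RPM, against 215 and 175 RPM in OMP. calm2b was at 1739 and 1028 RPM, against 959 and 901 RPM, and overlapped with OMP when reads were scaled to the gene total. calm3b and calm2a were not above OMP.

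G protein subunits formed the next group. gnao1b, an alpha subunit of the Go type, was at 485 and 365 RPM, against 190 and 194 RPM in OMP. Its paralog gnao1a was at 304 and 271 RPM and overlapped with the 275 and 216 RPM of OMP. The gamma subunit gene gng3 was at 433 and 534 RPM, against 271 and 198 RPM. gnb1b, a beta subunit gene, was at 486 and 443 RPM, against 412 and 325 RPM, and overlapped with OMP when scaled to the gene total. The neuropeptide gene adcyap1b was at 330 and 203 RPM and spanned its OMP levels.

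Another gamma subunit, gng8, stood below the 12 highest and was chosen after its values were seen. It was at 566 and 169 RPM, with 46.5 and 46.1 RPM in OMP. The gamma subunit gene gng13b had the opposite order, at 35.4 and 51.5 RPM against 528 and 491 RPM. gnrh2, which encodes a gonadotropin-releasing hormone, was at 384 and 103 RPM against 12.8 and 5.77 RPM. The other gene of the hormone, gnrh3, had 0 reads in both TRPC2 libraries and 750 and 300 RPM in OMP.

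Over the list of microvillous transduction genes and markers, which includes the 4 markers above, 15 of 29 were found in both TRPC2 libraries. Of the 15, 7 were above and 4 below both OMP libraries, beside 15.6% and 42.0% over all genes found in both. Scaled to the gene total, 6 were above and 3 below. The median log2 fold change of the list was 0.47, beside −0.49 over all genes tested. Its second channel gene, trpc2a, was at 11.4 and 0.21 RPM, and gng13a had 0 reads in both. The list of ciliated transduction genes had 6 of 17 members found in both, 1 above and 4 below OMP, and a median of −1.80. Also on it, ano2 was at 38.45 and 26.14 RPM in TRPC2. The Golf gene gnal, chosen after its values were seen, was at 6.65 and 12.04 RPM, against 118 and 102 RPM in OMP. The channel gene cnga4 was at 30.2 and 28.6 RPM, against 104 and 170 RPM. ora4, the receptor gene of crypt OSNs, had 0 reads in both TRPC2 libraries.

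Genes with a large excess over OMP were few. At 10 RPM or more in both TRPC2 libraries there were 4666 genes, and in 1105 of them the lower TRPC2 level exceeded the higher OMP level. It did so by more than 4-fold in 66 genes, by more than 10-fold in 34 and by more than 100-fold in 9. The 66 comprised 4 transcription factor genes, 1 surface gene, 3 signalling genes and 1 olfactory receptor gene, ora1. The transcription factors were mitfa, bhlhe41, sp5a and pax7b, the surface gene was the integrin itga1, and the signalling genes were gnrh2, gpr143 and s100z. Of these, pax7b is also on the list of xanthophore markers and mitfa on that of melanophore markers, both pigment cell lists described below. Each list holds only 10 genes, and whether others of the 66 also came from pigment cells was not tested. In RPM most of the 66, 50 genes, were higher in the second TRPC2 library than in the first, as were 30 of the 34. On the same scale 45.5% of the 9313 genes found in both were. These counts were not repeated on reads scaled to the gene total.

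The largest excess was that of bscl2l, whose name marks it as seipin-like, at 197 and 454 RPM against 0.08 and 0.47 RPM in OMP. The organic anion transporter gene slc22a7a was at 286 and 976 RPM, against 0.32 and 1.23 RPM. slc2a11b, of the glucose transporter family, was at 334 and 535 RPM, against 0.16 and 1.71 RPM. The second library was the higher one in all 3, as it was for wu:fc46h12.

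The purine metabolism genes xdh and urah were also among those with a large excess. xdh, which encodes xanthine dehydrogenase and is also on the xanthophore list, was at 14.1 and 26.7 RPM, against 0.12 and 0.06 RPM in OMP. urah, a hydrolase of the urate pathway, was at 188 and 527 RPM, against 0.79 and 1.75 RPM. The cation exchanger gene cax1 was at 63.2 and 93.8 RPM, against 0.50 and 0.62 RPM. tmem130 was at 61.0 and 268 RPM, against 0.08 and 0.44 RPM.

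The remaining 3 genes of the first 12 besides ora1 are known by clone names. si:dkey-106n21.1 was at 42.2 and 30.6 RPM, against 0.02 and 0.28 RPM. si:dkey-251i10.2 was at 772 and 2095 RPM, against 2.40 and 7.79 RPM. zgc:110224, listed as xndc1 in RefSeq, was at 926 and 395 RPM, against 4.70 and 2.91 RPM. With ora1, it and si:dkey-106n21.1 were the ones of the 12 that were higher in the first library. Log2 fold changes of the 12 lay between 7.42 for ora1 and 10.99 for bscl2l, each with an adjusted p of 0.0721 in edgeR.

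**Figure D3:**
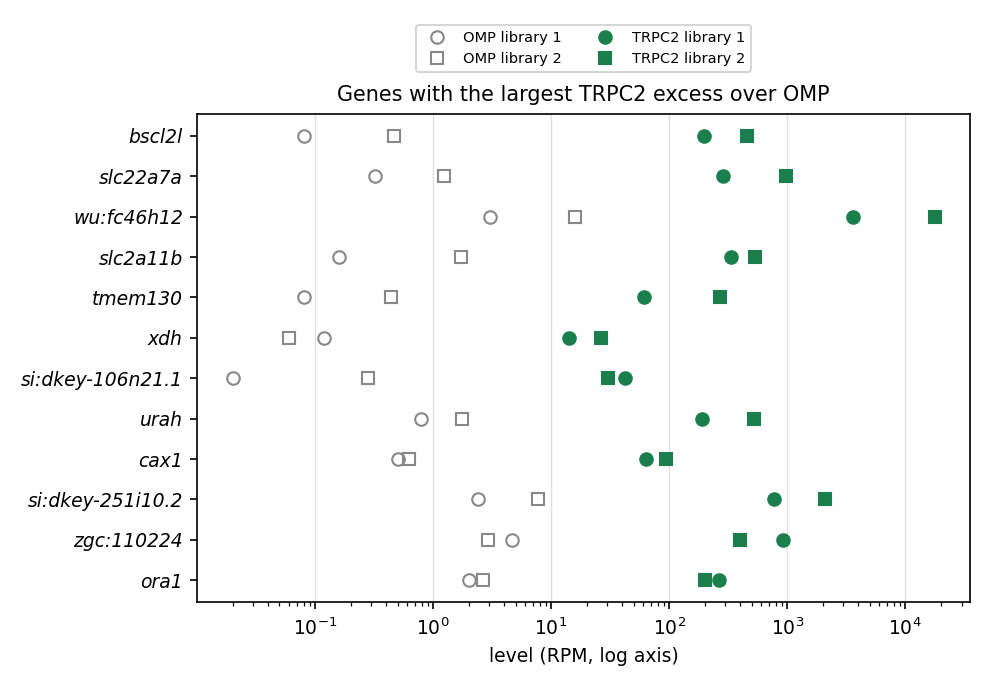
Levels in RPM on a log axis of the 12 genes with the largest ratio of the lower TRPC2 level over the higher OMP level, largest at the top. Filled symbols are TRPC2 and open symbols OMP libraries; all filled symbols lie right of the open ones, from bscl2l at 197 and 454 RPM to ora1 at 265 and 203 RPM.

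Markers of xanthophores, the yellow pigment cells, were high in the same libraries. Of the 10 xanthophore markers, 8 were found in both TRPC2 libraries, and all 8 were above both OMP libraries. Among all genes found in both, 15.6% were above. In RPM all 8 were also higher in the second TRPC2 library. Scaled to the gene total, impdh1b, at 318 and 327 RPM, was not. The summed level over all 10 markers was 1991 and 5549 RPM, against 103 and 139 RPM in the OMP libraries. gch2, the first enzyme of pteridine synthesis in these cells, was at 1279 and 4521 RPM, against 16.8 and 28.2 RPM.

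The next enzyme of that pathway, PTS, was at 224 and 339 RPM, against 3.45 and 2.27 RPM. Of a list of pteridine synthesis genes, which shares members with the xanthophore list, 12 of 15 were found in both. Of the 12, 8 were above and 1 below OMP, beside 15.6% and 42.0% over all genes found in both. Of the melanophore markers, 4 of 10 were found in both TRPC2 libraries. Over all 10, 3 were above both OMP libraries and 4 below both, with dct and tyrp1b at 0 reads in both TRPC2 libraries. The shares over all genes were 5.61% above and 53.3% below. The summed level of the melanophore markers was 37.1 and 95.3 RPM against 11.2 and 13.6 RPM. mitfa, which encodes a master regulator of melanophores, was at 12.2 and 49.9 RPM, against 0.03 and 0.59 RPM. The part of pigment cells in the excess over OMP was not tested.

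Markers of skin and of glia were lower in TRPC2 than in OMP. Skin and periderm markers summed to 1658 and 960 RPM, against 5131 and 8454 RPM in OMP. Of the 10 found in both, 9 were below OMP, beside 42.0% over all genes found in both. The keratin gene krt4 was at 131 and 106 RPM, against 1644 and 2819 RPM. Glial and progenitor markers summed to 180 and 132 RPM, against 1832 and 1971 RPM. None of the erythroid, muscle or endothelial markers was found in both TRPC2 libraries.

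Neuronal genes were present in both libraries. Of 41 panneuronal and growth cone genes, 31 were found in both, 12 above and 4 below OMP, with a median log2 fold change of 1.08 beside −0.49 over all genes tested. With reads scaled to the gene total, 13 were above and 1 below. Of all 9319 genes found in both, 15.6% were above and 42.0% below in RPM. On the gene total 1601 were above and 3171 below. The tubulin genes tuba1a, tubb5 and tuba1c led the list. tuba1a was at 856 and 4490 RPM, against 748 and 785 RPM. The synaptic vesicle list had 20 of 38 members found in both, 7 above and 6 below OMP. syt1a, which encodes the calcium sensor of vesicle release, was at 283 and 196 RPM, against 156 and 114 RPM.

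The TRPC2 libraries differed from each other by gene group. Over all genes found in both, the median log2 ratio of the second to the first library, on log2(RPM + 0.5), was −0.14. In RPM, all 81 ribosomal protein genes found in both were higher in the second library, with a median of 1.001. Their summed level was 88745 and 184832 RPM, against 90391 and 96767 RPM in OMP. Gene reads were 56.0% of the RPM total in the first library and 71.4% in the second, which raises these ratios. Small excesses, such as that of rpl4 at 1068 and 1128 RPM, reverse when reads are scaled to the gene total. The 8 xanthophore markers had a median of 0.89.

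Cell cycle genes had the opposite order. All 29 found in both were higher in the first library, with a median log2 ratio of −2.15. The replication clamp gene pcna was at 250 and 87.1 RPM, against 359 and 287 RPM in OMP. rrm2, which encodes a subunit of ribonucleotide reductase, was at 319 and 28.9 RPM, against 150 and 127 RPM. For rrm2 the first library lay above both OMP libraries and the second below both.

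The 8 AP-1 genes found in both, the family of fosab and jun, were also all higher in the first library, with a median of −2.15. All 8 were below both OMP libraries in both TRPC2 libraries, and 4 were when reads were scaled to the gene total. Among all 9319 genes found in both, 42.0% were below, and 3171 genes on the gene total. Over the 12 genes of the family the summed level was 1776 and 366 RPM, against 3470 and 2785 RPM in OMP. Of 39 regulators of the placode and of olfactory neurons found in both, 11 were higher in the second library, with a median of −0.86. The distal-less gene dlx5a was at 48.3 and 0.25 RPM, against 60.2 and 60.4 RPM in OMP, and was chosen after its values were seen. Each group compares 1 library with 1 other, so these ratios have no replicate check.

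**Figure D4:**
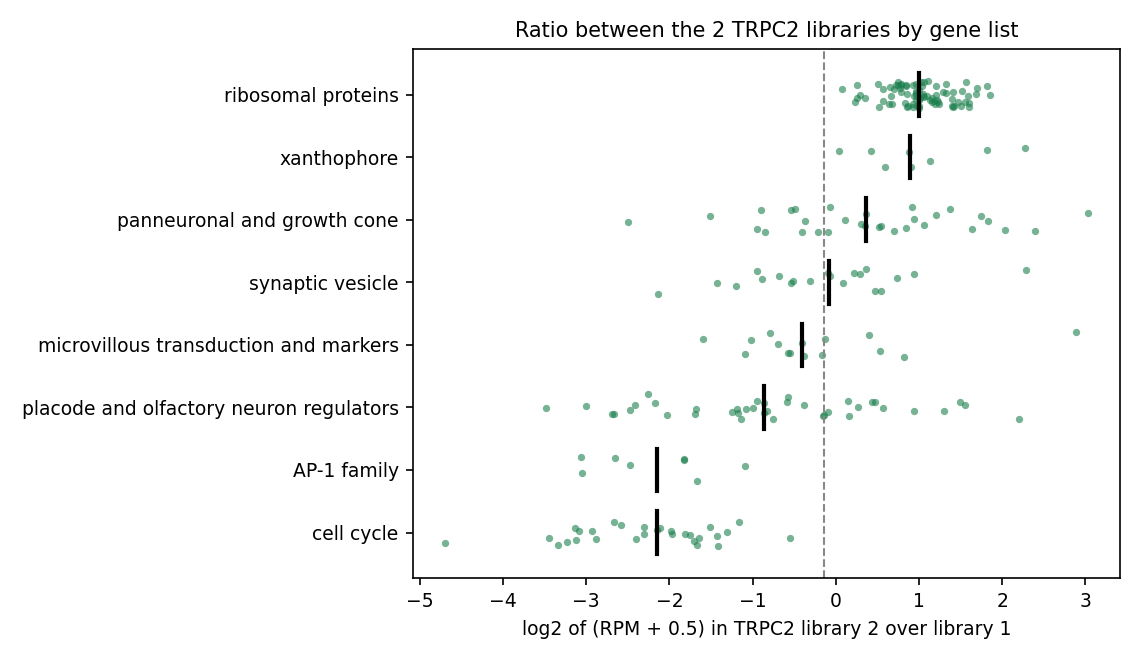
Points are genes at 1 RPM or more in both TRPC2 libraries, placed by the log2 ratio of library 2 over library 1 (RPM + 0.5); black bars are list medians and the dashed line the median over all genes, −0.14. Ribosomal protein genes lie right of 0 with a median of 1.001, and cell cycle and AP-1 genes left of it with medians of −2.15.

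The genes read in 1 TRPC2 library only were of low level. In the first library the 486 genes had a median of 2.73 RPM and a highest level of 24.9 RPM, and 27 of them were at 10 RPM or more. In the second the 543 genes had a median of 2.42 RPM, a highest level of 33.1 RPM and 32 genes at 10 RPM or more. Of these, 262 (53.9%) and 357 (65.7%) were at 1 RPM or more in both OMP libraries. Over all 28753 genes outside the receptor families that share was 53.0%, so the first library's share was near it. That background includes genes with no TRPC2 read, and a share over genes at 1 RPM or more in TRPC2 was not taken. No OMP read was found for 4 of the 486 and 2 of the 543 genes.

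Highest among those read only in the first library was fndc5b, a fibronectin domain gene, at 24.9 RPM. The Notch ligand gene dld was at 24.1 RPM there, and at 26.3 and 22.2 RPM in OMP. FAM84B_(2_of_2), IKZF4 and hmmr followed. IKZF4, of the Ikaros zinc finger family, was at 18.9 RPM and her4.1, a Notch target, at 8.91 RPM, which made them the highest transcription factor genes of this group. Next to dld the surface genes held the netrin gene ntn4, at 3.63 RPM. The signalling genes were led by kcnmb2, a potassium channel subunit gene, at 8.80 RPM and pkd1b, a polycystin gene, at 8.39 RPM.

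Those read only in the second library were led by si:dkey-51e6.1, at 33.1 RPM. It was followed by rbpms2b, an RNA-binding protein gene, at 28.6 RPM, then iqca1, phyhiplb and ccl34b.1. The Notch effector gene hey2 was at 10.5 RPM, against 22.03 and 21.7 RPM in OMP. pax8, a paired box gene, was at 8.48 RPM, against 0.49 and 1.55 RPM. The netrin-G gene ntng1a was at 7.65 RPM and the semaphorin gene sema4c at 6.82 RPM. The chemokine genes ccl34b.1, at 26.1 RPM, and ccl35.1, at 13.6 RPM, were the highest signalling genes of this group, and both had between 13.3 and 25.7 RPM in OMP.

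Amplified reads are not independent molecules, so 0 reads of a gene in a pool does not show that its cells lacked the transcript. A gene absent from 1 library was not detected there, and the part of pool size was not tested.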

How the data were processed

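RNA from FAC sorted cells was measured in 2 TRPC2 and 2 OMP libraries. The authors aligned reads with STAR to the GRCz10 assembly and tallied them by gene using VERSE. Their versions and the strand setting were not stated in the sources at hand, so overlapping and antisense genes may share reads. The authors deposited raw counts for 29029 gene symbols, and RPM, the counts divided by a larger library total and rounded to 2 decimals. Gene reads were 56.0% and 71.4% of that total in TRPC2 and 63.0% and 75.9% in OMP, so counts of non-overlapping genes were repeated on reads scaled to the gene total.

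Found in both means 1 RPM or more in each TRPC2 library, and read in 1 library only means 1 RPM or more there with 0 reads in the other. TRPC2 and OMP counts entered edgeR 4.0.16 in R 4.3.3 (glmQLFTest, TMM, filterByExpr, no term but class, Benjamini-Hochberg adjustment), TRPC2 over OMP, tested on simulated data. The SE given was derived as the absolute log2 fold change divided by the square root of the test's F statistic. Alternatives used DESeq2 1.42.0, limma 3.58.1, other scalings, filters, depths and libraries left out. The study calls libraries of a class independent without naming separate clutches, so the p-values rest on a spread that may be technical in part.

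Genes named are the 4 markers, the 10 highest by the lower TRPC2 level with and without translation genes, the 12, 10 and 12 highest of the transcription factor, surface and signalling sets, the 12 with the largest excess over OMP at 10 RPM or more (an OMP library at 0 reads being set to 3 reads), the 5 highest and 2 of each set read in 1 library only, the 3 highest of each list, and defining markers at 0 reads. Not every gene the rule names is printed. Outside it, and picked with their values known, are trpc2a, gnal, gng13b, dlx5a, cxcr4b, gng8, nr2f1a, lhx9, bhlhe41, sp5a, pax7b, itga1 and gpr143, and the olfactory receptor genes besides ora1. Sets were taken by symbol family, and genes of other function were left out by hand after the values were seen. So was the rule by which lists matched symbols without regard to case or copy suffix. Members and lists were chosen with earlier results of these data known.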

Additional observations from a re-analysis of the deposited data

How the results depend on the processing

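The count of genes called between TRPC2 and OMP depended on the test. It was 0 with edgeR under DESeq2's size factors, library totals only, no filter beyond 1 read, at least 100 counts in 2 libraries and thinned counts. The DESeq2 Wald test called 3909 genes (1192 higher and 2717 lower in TRPC2), limma on log2(RPM + 0.5) 5110 (165 and 4945) and limma on log2(RPM + 0.1) 5525 (175 and 5350). A fit with the replicate number as a block called 597 (268 and 329). The numbers share no batch in the labels and the deviations of same-numbered libraries had a correlation of −0.0005 across genes, so they do not pair the samples. With 1 library left out the calls ranged from 110 without the second OMP library to 11665 without the second TRPC2 library, those higher in TRPC2 from 50 to 3773 and those lower from 60 to 8023. Such a fit takes the spread from the class that kept 2 libraries, and without a TRPC2 library that is OMP alone. Why the tests differ was not tested.

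Scaling moved the median of all log2 fold changes, from −0.49 (TMM) to −0.36 (size factors of DESeq2) or −1.13 (library totals only). Fold changes were recomputed for 15 genes, the markers and those with the largest excess over OMP, given above singly or as a range. All 195 alternative values kept their direction. Both TRPC2 libraries lay above both OMP libraries in all 15, and most were picked for that excess. The kept direction was therefore nearly fixed beforehand and is no separate check. At an adjusted p under 0.05 the DESeq2 Wald test passed 15, and limma with either pseudocount 14. The fit with the replicate block passed 14, and edgeR with another scaling, filter or depth 0. These counts come after the same choice of genes.

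Genes found in both TRPC2 libraries, receptors included, numbered 9319, and 4666 at 10 RPM. Genes read in only 1 library numbered 1038, against 650 at 2 RPM, 59 at 10 RPM and 1795 with up to 3 reads allowed in the other library. A count chosen after seeing the data, 10 RPM or more in one and under 0.1 RPM in the other, gave 167. Genes with both TRPC2 libraries above both OMP libraries numbered 1628, 161 at 4-fold or more, and from 1958 to 4545 with 1 library left out. Without the xanthophore and pteridine lists, left out after seeing the data, there were 1615. Of the 10 highest genes, 5 were among the 10 highest of the second TRPC2 library alone and 8 among those of the first. Ranking by coding length was not run.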

Other observations

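The receptor families were thinly read in the TRPC2 libraries. Of 276 olfactory receptor genes taken by symbol, 6 were at 1 RPM or more in both TRPC2 libraries, 4 only in the first and 5 only in the second, against 91 in both OMP libraries. After ora1 the highest by the lower TRPC2 level were or112-1, at 95.1 and 33.2 RPM, and or107-1, at 44.3 and 6.81 RPM, both of the odorant receptor family of ciliated OSNs. or112-1 was at 69.6 and 110 RPM in OMP. Of 39 V2R genes, 24 had 0 reads in both TRPC2 libraries, as had 8419 of all 29029 genes. Above both OMP libraries there were 0 V2R genes, and below both there were 15, beside 5.61% and 53.3% over all genes. The family summed to 70.3 and 13.2 RPM, against 59.9 and 59.0 RPM in OMP. The 2 found in both TRPC2 libraries were v2rl1 and v2rx1. v2rl1 was at 14.5 and 2.49 RPM, against 16.7 and 16.8 RPM in OMP. v2rx1 was at 45.0 and 1.52 RPM, against 4.17 and 4.66 RPM, so its libraries lay on either side of OMP.

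Markers of immune cells were read at low levels that differed between the TRPC2 libraries. Of 22 genes matching the macrophage and neutrophil list, 1 was above both OMP libraries and 11 were below both. Over all genes these shares were 5.61% and 53.3%. The list summed to 83.2 and 99.2 RPM, against 169 and 262 RPM in OMP. lyz, the lysozyme gene of neutrophils and macrophages, was at 48.4 and 10.4 RPM, above 3.24 and 3.47 RPM in OMP. coro1a, a gene of leukocytes, was at 2.10 and 42.2 RPM, against 19.1 and 31.0 RPM. mpx, the neutrophil peroxidase gene, had 0 reads in both TRPC2 libraries. Of 30 listed potassium channel genes, 3 were above both OMP libraries and 16 below both. The median log2 fold change of that list was −0.57, beside −0.49 over all genes tested. Its member kcnh6a, of the ERG family, was at 20.2 and 31.9 RPM, against 7.10 and 2.76 RPM, without overlap.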
